A study of Saccharomyces cerevisiae with 15 samples.

Results

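The 10 genes described here make, carry and break down glycerol in the yeast Saccharomyces cerevisiae: GPD1, GPD2, GPP1, GPP2, STL1, FPS1, GUT1, GUT2, GCY1 and DAK1. They were chosen by name for their place in the pathway, with earlier results of these data known, and are 10 of the 6249 genes or unnamed probes on the arrays. Each had 1 probe. The probe table lists GPP1 under its older name RHR2 (YIL053W) and GPP2 under HOR2 (YER062C). All cells were haploid, of mating type a and of the W303 background, and polyadenylated RNA was compared on 15 2-colour DNA microarrays with 1 array per condition. On 14 of them RNA from cells treated for 20 minutes was set against RNA from untreated cells in mid-log growth. The combined treatments of wild-type cells were nitrogen starvation with 0.375 M KCl, nitrogen with glucose starvation, and glucose starvation with 200 nM rapamycin, a drug that blocks the growth-promoting kinase complex TORC1. Per the labels both glucose starvations left glucose out altogether. Cells of the snf1 deletion strain, which lack the yeast AMP-activated protein kinase, had 0.375 M KCl, nitrogen starvation, 0.1% glucose or 0.02% glucose. The 7 single treatments of wild-type cells were 0.375 M KCl, 0.1% glucose, nitrogen starvation, amino acid starvation, 200 nM rapamycin, 0.4 mM hydrogen peroxide and a heat shock to 42 °C. The last array set snf1 cells against wild-type cells, both in mid-log growth.

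Glycerol is the main solute that budding yeast builds up to balance high outside osmolarity, and its synthesis also reoxidises NADH when respiration is off. Gpd1 and Gpd2 reduce dihydroxyacetone phosphate to glycerol-3-phosphate, and Gpp1 and Gpp2 remove the phosphate. Stl1 brings glycerol in together with protons, and Fps1 is a channel that lets it out and closes at high osmolarity. Gut1, a glycerol kinase, and Gut2, a mitochondrial glycerol-3-phosphate dehydrogenase, feed glycerol into respiration, and a second route runs through the glycerol dehydrogenase Gcy1 and the dihydroxyacetone kinase Dak1. The HOG kinase cascade senses osmotic stress and drives GPD1, GPP2 and STL1 through activators that include Hot1, whereas GUT1 and GUT2 are repressed by glucose and need Snf1 and the activator Adr1 when glucose runs out.

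Each value is the log2 of a gene's signal in treated cells over that in mid-log cells, so 1 stands for a 2-fold higher and −1 for a 2-fold lower RNA level. A ratio measures change and not abundance, and no level can be set against that of another gene. On RNA of a whole culture, a change in every cell and a larger change in some of the cells cannot be told apart. Of the 10 genes, 7 had a value on every array. STL1 had none with rapamycin, heat, peroxide and on the mid-log strain array, GUT2 had none at heat shock and FPS1 none in wild-type nitrogen starvation. Without replicate arrays, the nearest measure of error was the spread between probes of 1 gene, whose values on an array had a median range of 0.675 over 84 gene-by-array values of 7 other genes. The deletion could not be checked between the strains, because SNF1 itself was without a value on the mid-log strain array. On treated snf1 arrays SNF1 read from 0.05 (KCl) to 2.57 (0.1% glucose), but these ratios set snf1 cells against snf1 cells. Blank control spots read 2.59 and 2.66 on that 0.1% glucose array. On the 0.02% glucose array SNF1 read 0.95, and the blank spots −1.01 and −0.88. How far background sets the SNF1 values was not tested. The peroxide array alone had its dyes the other way round, and there an effect of peroxide and one of the dyes cannot be told apart.

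Most glycerol genes were high in KCl, and 1 of them, GCY1, was high under every treatment. In KCl, 7 of the 10 were at least 2-fold higher in snf1 cells, where 12.3% of all genes with a value were, 6 of 10 in wild-type cells starved of nitrogen (18.4% of all genes) and 7 of 10 in wild-type cells with KCl alone (13.2% of all genes). Their medians on these arrays were 2.54, 2.54 and 2.83, against medians of all genes of 0.00, −0.06 and −0.06. No glycerol gene was 2-fold lower on any of the 3, where 13.4%, 23.0% and 15.7% of all genes were. Over the 14 treated arrays the 10 genes gave 135 values, of which 57 were 1 or more and 5 were −1 or less, where 13.8% and 15.5% of the values of all genes were. All 5 low values were of GPP1.

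**Figure D1:**
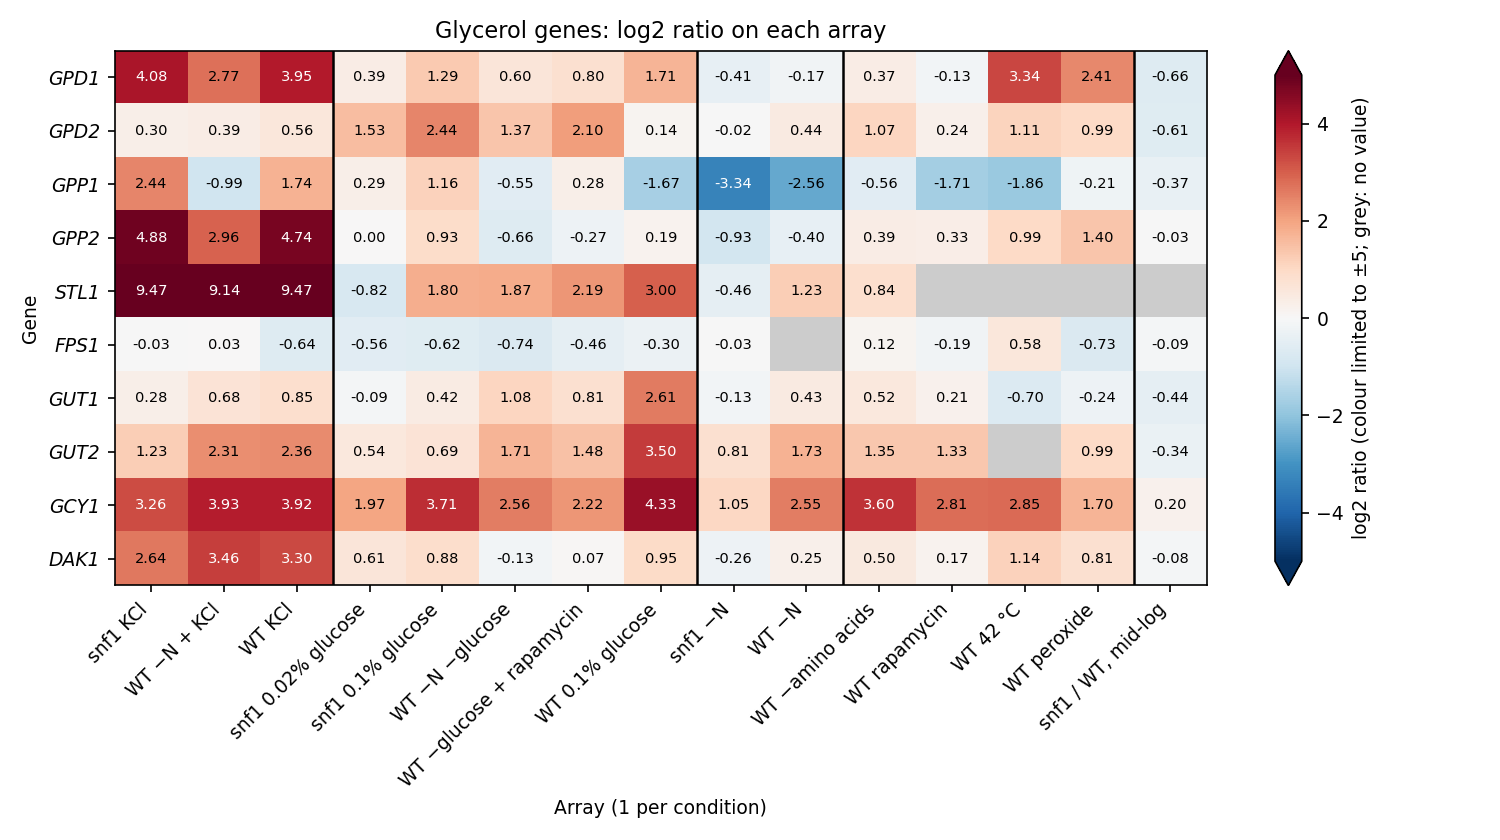
Each cell gives the log2 ratio of 1 glycerol gene (down the page) on 1 array (across), as treated over mid-log cells, or snf1 over wild-type cells for the array at the right edge; red is higher, blue lower, grey no value, and the colour is limited to 5 in either direction. STL1 has the darkest cells, on the 3 KCl arrays at the left, GCY1 is above 1 on all 14 treated arrays, and GPP1 holds the lowest value, −3.34 in snf1 cells starved of nitrogen.

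The first comparison asked which of these genes answered KCl, alone, with nitrogen starvation and in the snf1 strain. GPD1, GPP2, STL1, DAK1 and GCY1 rose with KCl, and the other 5 did not pass the test. GPD1, the dehydrogenase of osmotic stress, stood at 4.08 in snf1 cells with KCl, 2.77 in nitrogen starvation with KCl and 3.95 in wild-type cells with KCl alone. On the 11 treated arrays without KCl it ran from −0.41 in snf1 cells without nitrogen to 3.34 at heat shock, with a median of 0.60. The groups thus overlapped through 1 array, heat shock, while the next highest, peroxide at 2.41, lay below every KCl array. In a limma model with an additive term for each treatment and the strain, fitted on all 14 treated arrays and 4653 genes, the KCl coefficient of GPD1 was 3.79 (SE 0.284, adjusted p = 0.000293).

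GPP2, the phosphatase of osmotic stress, stood at 4.88 in snf1 cells with KCl, 2.96 in nitrogen starvation with KCl and 4.74 with KCl alone. The 11 other treated arrays lay between −0.93 and 1.40, and no value among them reached those of KCl. Its KCl coefficient was 4.42 (SE 0.290, adjusted p = 0.000246). DAK1, which clears the dihydroxyacetone formed from glycerol, was the third gene of this kind, at 2.64, 3.46 and 3.30 on the same arrays, against −0.26 to 1.14 on the 11 others, with a coefficient of 3.19 (SE 0.282, adjusted p = 0.000467).

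STL1 had the largest ratios in the whole set. It stood at 9.47 in snf1 cells with KCl, 9.14 in nitrogen starvation with KCl and 9.47 in wild-type cells with KCl alone, rank 1 on each of these arrays among 6249, 6249 and 5513 genes. The 2 values of 9.47 are equal to the 2 decimals deposited and are the highest in the table. On the 8 other treated arrays with a value STL1 ran from −0.82 in snf1 cells in 0.02% glucose to 3.0 in wild-type cells in 0.1% glucose. When genes with missing values were let into the fit, so that STL1 rested on 11 arrays, its KCl coefficient was 9.55 (SE 0.637, adjusted p = 0.000658). STL1 had no value on 4 arrays, and how far a mid-log signal near background sets the size of its ratio was not tested.

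GCY1, the glycerol dehydrogenase, stood at 3.26, 3.93 and 3.92 on the snf1 KCl, nitrogen starvation with KCl and KCl arrays, against 1.05 to 4.33 on the 11 others, so its groups overlapped widely. Its KCl coefficient of 3.28 (SE 0.781, adjusted p = 0.0204) is against mid-log cells. Set against the other treated arrays in place of mid-log cells, it was 1.04 (adjusted p = 0.419). The call was also lost without the wild-type KCl array (adjusted p = 0.217) or on wild-type arrays only (adjusted p = 0.203). Setting KCl arrays against the other treated arrays also ended the call for GPD1, at 2.67 (adjusted p = 0.0690), but not for GPP2 (4.01, adjusted p = 0.000655), DAK1 (2.68, adjusted p = 0.000655) or STL1 (8.15, adjusted p = 0.000194). Leaving out the snf1 KCl array (0.0744), snf1 nitrogen starvation (0.0561) or nitrogen starvation with KCl (0.0510) likewise took the adjusted p of GCY1 above 0.05. For GPD1, GPP2, DAK1 and STL1 the KCl call held without each in turn of the 11 arrays that share a term with another.

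With GCY1 counted, 4 of the 7 genes with complete values rose with KCl and none fell, where 12.4% of the 4653 genes tested rose and 12.4% fell. With missing values allowed it was 5 of 10 higher and 0 of 10 lower, against 8.91% and 7.59% of 6249. GPP1, the second phosphatase, missed the threshold (1.90, SE 0.660, adjusted p = 0.0617), as did GUT2 (1.86, SE 0.583, adjusted p = 0.0588, 13 arrays) and GUT1 (0.79, SE 0.384, adjusted p = 0.148). Without the wild-type array in 0.1% glucose all 3 passed, with adjusted p of 0.00367 for GPP1, 0.00971 for GUT2 and 0.0241 for GUT1, and GPP1 also passed without nitrogen with glucose starvation (0.0354). GUT2 passed with a trended robust prior as well (0.04998). GPD2 was at 0.28 with a 95% interval of −0.55 to 1.10 (adjusted p = 0.592), and FPS1, the export channel, at −0.22 with an interval of −0.71 to 0.28 (adjusted p = 0.497, 13 arrays). FPS1 never reached a 2-fold change, with values of −0.74 to 0.58 on the 13 treated arrays that measured it.

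**Figure D2:**
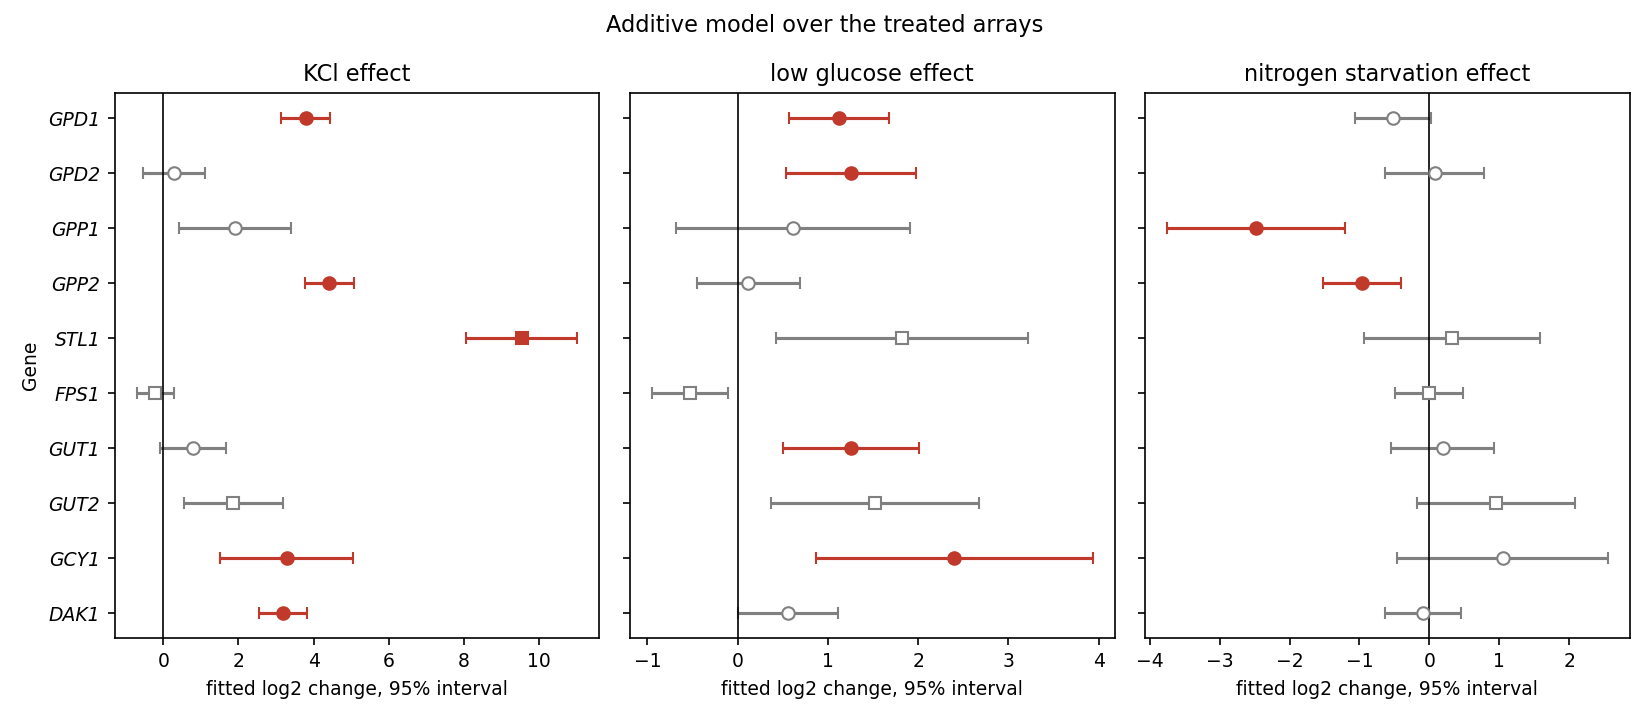
Points are coefficients of the additive limma model on the log2 scale, relative to mid-log cells, with bars for 95% intervals; squares mark STL1, FPS1 and GUT2, fitted with missing values allowed, and filled points passed an adjusted p of 0.05. With KCl, STL1 at 9.55, GPP2 at 4.42, GPD1 at 3.79, GCY1 at 3.28 and DAK1 at 3.19 passed, and GPP1 was the lowest with nitrogen starvation at −2.48.

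KCl was also given to cells starved of nitrogen. Between nitrogen starvation with KCl and nitrogen starvation alone, 6 of 9 glycerol genes were at least 2-fold higher, where 4.89% of 5580 genes were, none was 2-fold lower (9.82% of all genes), and STL1 (7.91), GPP2 (3.36), DAK1 (3.21) and GPD1 (2.94) ranked 1, 12, 14 and 23 among them. GPP1 differed by 1.57 and GCY1 by 1.38. GUT2 (0.58), GUT1 (0.25) and GPD2 (−0.05) differed by less than 2-fold. Each of these differences rests on 2 arrays and has no test. Blank control spots read −1.99 and −1.84 on the array with KCl and −0.75 and −0.7 on that without. The part of background in these differences was not tested.

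Nitrogen starvation on top of KCl was set against KCl alone next. It left none of the 10 genes 2-fold higher, where 7.27% of genes were, and 3 of them 2-fold lower, where 10.5% of 5513 genes were. The 3 were genes of synthesis, and GPD2, the remaining one, stood at 0.39 against 0.56. GPP1 stood at −0.99 with both treatments, against 1.74 with KCl alone, GPP2 at 2.96 against 4.74, and GPD1 at 2.77 against 3.95. STL1 (9.14 against 9.47), GUT2 (2.31 against 2.36), GCY1 (3.93 against 3.92) and DAK1 (3.46 against 3.30) differed by at most 0.33. Compared with the sum of the single treatments, the combined array was within 0.17 for GPP1 and DAK1. It was lower for GPD1 (2.77 against a sum of 3.78), GPP2 (2.96 against 4.34), STL1 (9.14 against 10.70), GUT2 (2.31 against 4.09) and GCY1 (3.93 against 6.47). Blank control spots read −1.99 and −1.84 on the combined array, and on the array of KCl alone they were exact zeros. How far background sets these differences and sums was not tested.

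In snf1 cells the KCl values of GPD1, GPP2 and STL1 were within 0.14 of those in wild-type cells. Each strain was set against its own mid-log cells, so differences between the strains under a treatment are of response and not of RNA level. Of the 10 genes none had a 2-fold higher ratio in snf1 than in wild-type cells with KCl, where 1.36% of genes did. For 1 gene the ratio was 2-fold lower, where it was for 2.87% of genes. That gene was GUT2, at 1.23 in snf1 cells against 2.36 in wild-type cells. The ratios of GCY1 and DAK1 were each 0.66 lower in snf1 cells, and that of GPP1 was 0.70 higher.

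**Figure D3:**
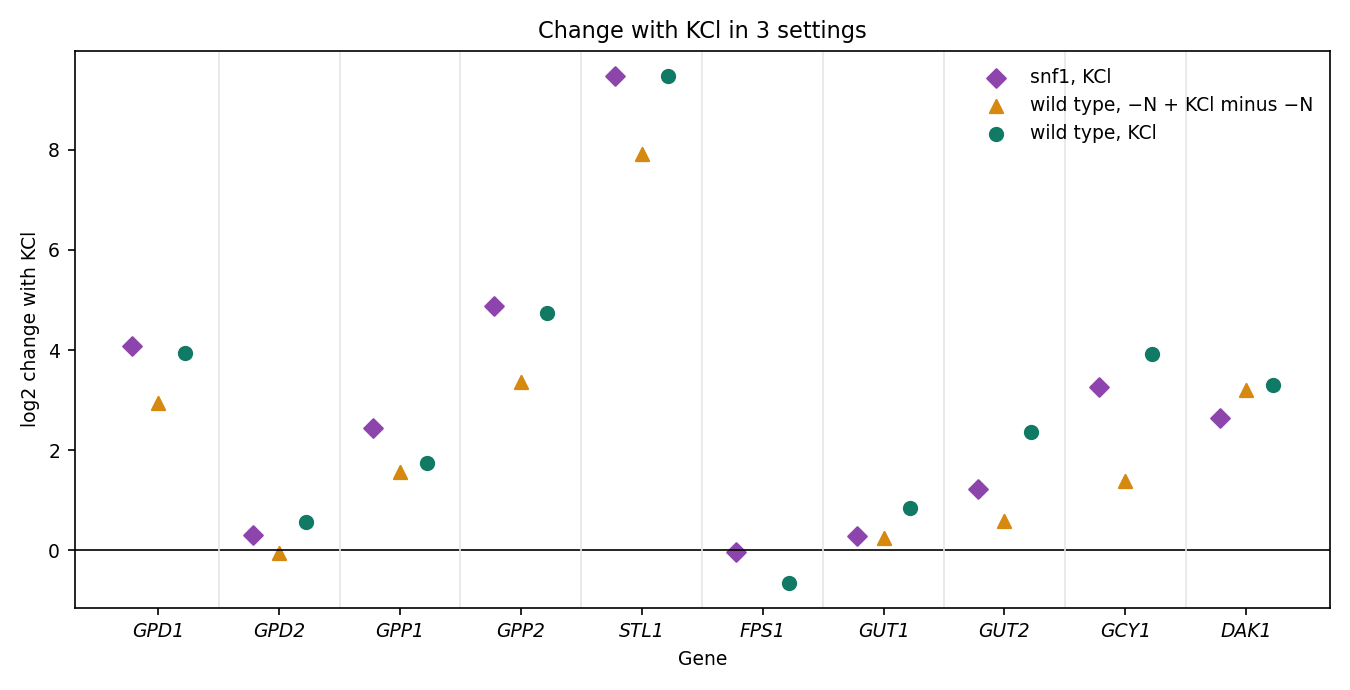
For each gene, the log2 change with KCl in snf1 cells (diamonds), in wild-type cells starved of nitrogen (triangles, the array with KCl minus the array without) and in wild-type cells with KCl alone (circles). STL1, GPP2, GPD1 and DAK1 are above 2.6 in all 3 settings, GCY1 is at 1.38 in starved cells against 3.92 with KCl alone, and FPS1 has no value for starved cells.

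The isozymes of each step parted by treatment. GPD1 was higher than GPD2 on all 3 KCl arrays, by 3.78 in snf1 cells, 2.38 with nitrogen starvation and 3.39 with KCl alone, and also at heat shock (3.34 against 1.11), in peroxide (2.41 against 0.99) and in wild-type cells in 0.1% glucose (1.71 against 0.14). On the other 8 treated arrays GPD2, the isozyme known for redox balance without oxygen, had the higher ratio. The difference of the log2 ratios averaged 3.18 ± 0.72 on the KCl arrays (SD, n = 3) and −0.11 ± 1.24 on the other treated arrays (SD, n = 11). The groups did not overlap, and the difference of 3.29 had p = 0.00275 in an exact two-sided permutation test over arrays, the smallest that 364 splits can give (adjusted p = 0.00824 over 6 tests). All 6 isozyme tests were added after the values were seen, so their p-values describe the splits and are no independent support. The arrays of a group carry different treatments, so they stand in for replicates and are not ones. Arrays without KCl include those of low glucose, and arrays without low glucose include those of KCl. Each isozyme difference for 1 of these treatments thus holds a part of the other.

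GPD2 was highest in low glucose, apart from wild-type cells in 0.1% glucose. It stood at 1.53 in snf1 cells in 0.02% glucose, 2.44 in snf1 cells in 0.1% glucose, 1.37 in nitrogen with glucose starvation and 2.10 in glucose starvation with rapamycin, but at 0.14 in wild-type cells in 0.1% glucose. On those first 4 arrays GPD1 was at 0.39, 1.29, 0.60 and 0.80, below GPD2 each time. Over all 5 low-glucose arrays the GPD1 minus GPD2 difference averaged −0.56 ± 1.21 (SD, n = 5), against 1.24 ± 1.80 on the other 9 (SD, n = 9), which missed the threshold (exact two-sided permutation p = 0.0679, adjusted p = 0.102). Without the wild-type array in 0.1% glucose it was −2.33 (adjusted p = 0.0336).

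GPP2 had a higher ratio than GPP1 on all 3 KCl arrays, by 2.44 in snf1 cells, 3.95 with nitrogen starvation and 3.0 with KCl alone. The mean was 3.13 ± 0.76 (SD, n = 3), against 1.15 ± 1.25 on the other treated arrays (SD, n = 11), a difference of 1.98 (exact two-sided permutation p = 0.0165, adjusted p = 0.0330). Those 11 include the low-glucose arrays, with a mean of 0.14, so the difference is not one of KCl alone. The call was lost without the wild-type KCl array (adjusted p = 0.146), nitrogen starvation with KCl (adjusted p = 0.161) or nitrogen with glucose starvation (adjusted p = 0.0559). The groups overlapped through heat shock, at 2.85, and the next highest without KCl were nitrogen starvation in snf1 (2.41) and wild-type cells (2.16).

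In low glucose the ratios of the phosphatase genes lay closer together. GPP2 minus GPP1 averaged 0.14 ± 0.98 on the 5 low-glucose arrays (SD, n = 5) and 2.38 ± 0.86 on the other 9 (SD, n = 9), a difference of −2.24 (exact two-sided permutation p = 0.00150, adjusted p = 0.00824). Of the 5, only wild-type cells in 0.1% glucose had GPP2 clearly above GPP1, at 0.19 against −1.67. The other 4 had differences of −0.55 to −0.11. On wild-type arrays alone none of the isozyme differences passed, the lowest adjusted p in the permutation tests being 0.0889. Fewer arrays leave fewer splits, which raises the smallest p that each test can give. The lack of a pass there thus does not show that a difference is absent. The phosphatases are close in sequence, and how far each probe reads the other gene's RNA was not tested.

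**Figure D4:**
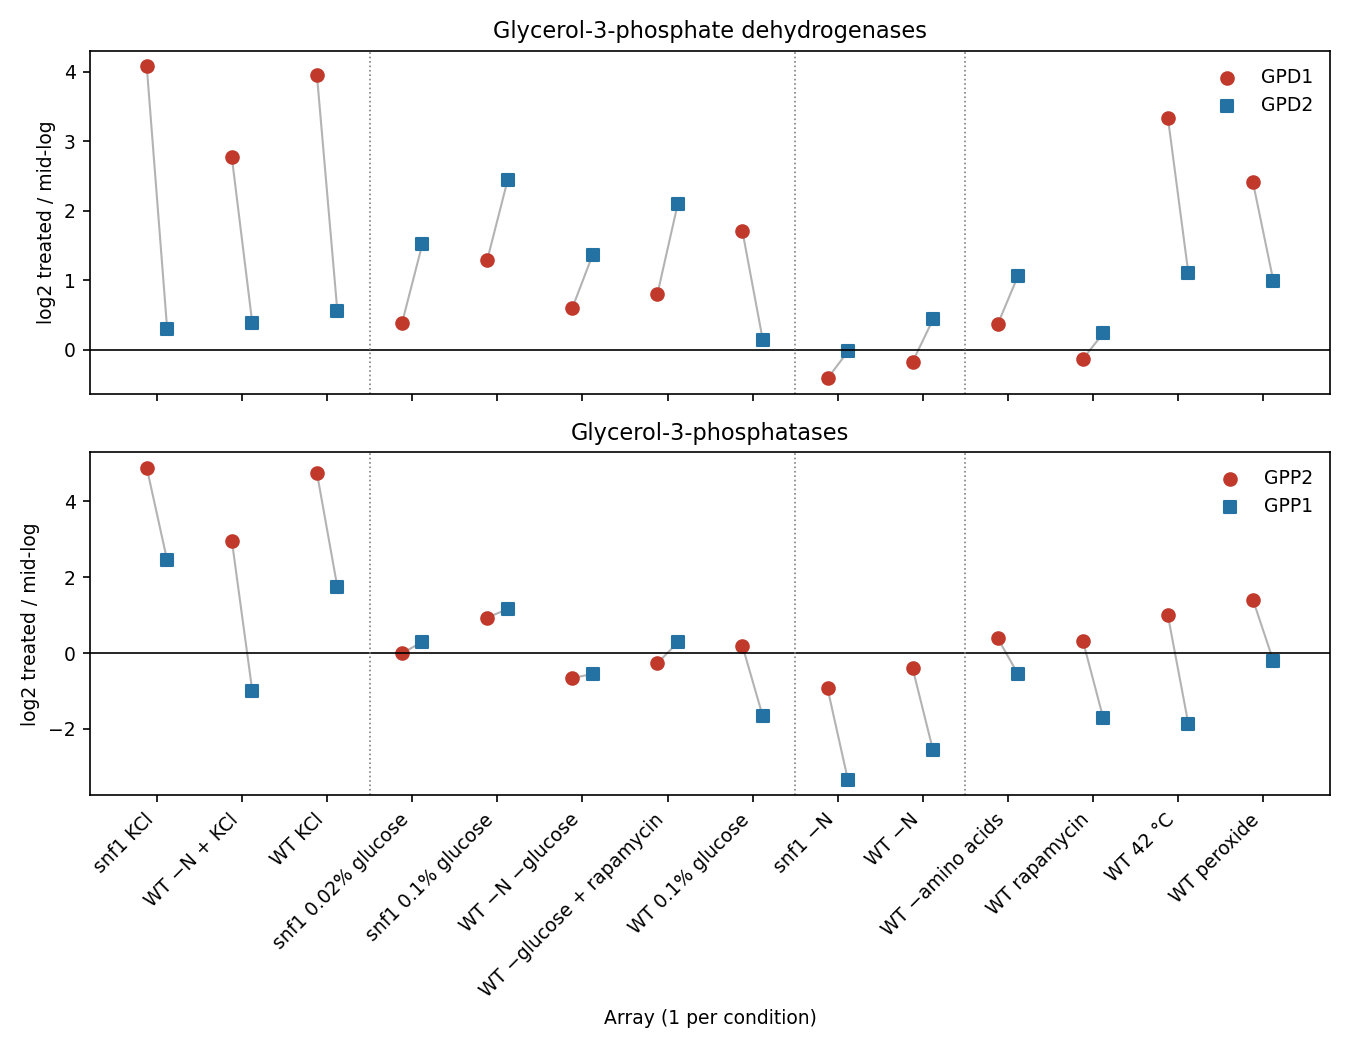
Paired points give the log2 ratio of GPD1 and GPD2 (upper panel) and of GPP2 and GPP1 (lower panel) on each of the 14 treated arrays, with dotted lines between KCl, low-glucose, nitrogen starvation and other arrays. GPD1 is 2.38 to 3.78 above GPD2 on the KCl arrays and below it on 4 of 5 low-glucose arrays, and GPP1 falls below −2 only in nitrogen starvation, at −3.34 in snf1 and −2.56 in wild-type cells.

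In the additive model GPP1 and GPP2 fell with nitrogen starvation. In nitrogen starvation GPP1 stood at −3.34 in snf1 cells and −2.56 in wild-type cells. It was also low at −1.71 with rapamycin, at −1.86 at heat shock and at −1.67 in wild-type cells in 0.1% glucose. GPP2 stood at −0.93 in snf1 and −0.40 in wild-type cells starved of nitrogen, less than 2-fold lower. With nitrogen and glucose starvation GPP1 was at −0.55 and GPP2 at −0.66, and with nitrogen starvation and KCl they were at −0.99 and 2.96. Blank control spots read −1.53 and −1.34 on the snf1 array of nitrogen starvation, and the part of background in these values was not tested. The nitrogen coefficient of GPP1 was −2.48 (SE 0.563, adjusted p = 0.0121), and that of GPP2 was −0.97 (SE 0.248, adjusted p = 0.0180). These were 2 of 7 genes lower and 0 of 7 higher, where 19.1% of all genes fell and 14.6% rose. The GPP1 call was lost without the nitrogen starvation array of snf1 cells (adjusted p = 0.134) or of wild-type cells (adjusted p = 0.0651), and the GPP2 call without that of snf1 cells (adjusted p = 0.172) or nitrogen starvation with KCl (adjusted p = 0.0619). GPD1 (−0.52, adjusted p = 0.123), GCY1 (1.05, adjusted p = 0.241) and GUT2 (0.96, adjusted p = 0.181) did not pass, but GUT2 passed without wild-type cells in 0.1% glucose (1.11, adjusted p = 0.0119).

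The second treatment that these genes are known for is loss of glucose. In wild-type cells in 0.1% glucose 5 of 10 were at least 2-fold higher (14.7% of all genes) and 1, GPP1, was 2-fold lower (19.1% of all genes). GCY1 stood at 4.33, the mitochondrial dehydrogenase gene GUT2 at 3.50, STL1 at 3.0, the kinase gene GUT1 at 2.61 and GPD1 at 1.71. GUT1 had no higher value on any array. GUT2 likewise had its highest value there, and the next, 2.36 and 2.31, were in KCl and in nitrogen starvation with KCl.

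In low glucose both genes of the glycerol kinase route stayed within 2-fold of their mid-log level in snf1 cells. In 0.1% glucose GUT1 was at 0.42 in snf1 cells against 2.61 in wild-type cells, GUT2 at 0.69 against 3.50, and STL1 at 1.80 against 3.0. Of the synthesis genes, GPD2 had the higher ratio in snf1 cells, at 2.44 against 0.14 in wild-type cells, as had GPP1, at 1.16 against −1.67. GPP2 (0.93 against 0.19) and GPD1 (1.29 against 1.71) differed by less than 2-fold. In all, 2 of 10 genes had a 2-fold higher ratio to mid-log cells in snf1 than in wild-type cells (14.3% of all genes). For 3 of 10 the ratio was 2-fold lower (6.29% of all genes). The 2 blank control spots read 2.59 and 2.66 on the snf1 array, above every glycerol gene there but GCY1 (3.71). They read −1.15 and −0.77 on the wild-type array. The part of such background in these values, those of GPD2 and GPP1 included, was not tested.

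The array of snf1 cells at the lower glucose level showed no larger response of these genes. In 0.02% glucose 2 of 10 genes were 2-fold higher than in mid-log cells (7.54% of all genes), GCY1 at 1.97 and GPD2 at 1.53. None was 2-fold higher than in 0.1% glucose (3.26% of all genes). STL1 (−0.82 against 1.80) and GCY1 (1.97 against 3.71) were 2-fold lower than in 0.1% glucose, where 9.65% of genes were. None of the 10 was 2-fold lower than in mid-log cells (7.52% of all genes), with GUT1 at −0.09 and GUT2 at 0.54. Blank spots on this array read −1.01 and −0.88, against 2.59 and 2.66 on the snf1 array in 0.1% glucose. How far background sets the differences between the 2 arrays was not tested.

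Wild-type cells starved of glucose together with another signal gave GUT1 and GUT2 values between those of the strains in 0.1% glucose. With nitrogen and glucose starvation 5 of 10 genes were 2-fold higher (16.3% of all genes), none was 2-fold lower (18.1%), and GUT1 was at 1.08 and GUT2 at 1.71. With glucose starvation and rapamycin 4 of 10 were (13.2% of all genes), GUT1 at 0.81 and GUT2 at 1.48. GPD2, GUT2, STL1 and GCY1 were 2-fold higher on both arrays. Per the labels these cultures had no glucose, so their dose differs from 0.1% and the values stand side by side only.

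Over the 5 arrays counted as low glucose, 2 of them with none, the additive limma model called 4 of 7 genes higher and none lower, where 12.4% of all genes rose and 17.3% fell. They were GCY1 (2.40, SE 0.680, adjusted p = 0.0296), GPD2 (1.25, SE 0.319, adjusted p = 0.0203), GUT1 (1.25, SE 0.334, adjusted p = 0.0239) and GPD1 (1.12, SE 0.247, adjusted p = 0.0126). STL1 (1.82, adjusted p = 0.0603), GUT2 (1.52, adjusted p = 0.0568) and FPS1 (−0.53, adjusted p = 0.0701) missed the threshold with missing values allowed. Other settings took them past it, with zeros kept for STL1 (adjusted p = 0.0281) and FPS1 (0.0493), a trended robust prior for GUT2 (0.0431) and FPS1 (0.0423), and centred arrays for GUT2 (0.0442). GPP1, GPP2 and DAK1 lay between 0.12 and 0.61. Single arrays decided several of these. STL1 passed without 0.02% glucose (2.31, adjusted p = 0.0206), GPP1 without wild-type cells in 0.1% glucose (1.61, adjusted p = 0.0173), DAK1 without nitrogen with glucose starvation (0.85, adjusted p = 0.0367), and GUT2 without either rapamycin array (1.77, adjusted p = 0.0493). All 4 calls were lost on wild-type arrays only, with adjusted p of 0.158 to 0.264, and against the other treated arrays in place of mid-log cells, where GPD1 turned to −0.84. Each was also lost without the nitrogen starvation array of snf1 cells, with adjusted p of 0.0509 to 0.104. Further losses came for GPD2 without nitrogen with glucose starvation (adjusted p = 0.0558), for GUT1 without snf1 cells in 0.1% glucose (0.0509), and for GCY1 without that array (0.0707), either single KCl array (0.0520 and 0.0525) or wild-type cells in 0.1% glucose (0.116). Without that last array the coefficients were smaller for GUT1 (0.66), GUT2 (0.66), STL1 (1.17) and GCY1 (1.56).

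The response of snf1 cells was then tested against that of wild-type cells over nitrogen starvation, KCl and 0.1% glucose, with the treatment as a block and 6 arrays. The wild-type arrays of nitrogen starvation and KCl held many exact zeros, taken as no value, and the snf1 arrays did not. For these treatments the strain and this difference between arrays cannot be told apart. No gene of the whole array passed in limma in either direction (0.0% of 4653), while 626 had an unadjusted p below 0.05. The lowest glycerol genes were GUT2 at −1.62 (SE 0.392, unadjusted p = 0.00612, adjusted p = 0.328), GUT1 at −1.11 (SE 0.357, unadjusted p = 0.0203, adjusted p = 0.341), STL1 at −0.96 (SE 0.344, adjusted p = 0.365) and GCY1 at −0.93 (SE 0.243, adjusted p = 0.310). The ratios of GUT1, GUT2, GCY1 and DAK1 were lower in snf1 cells under 3 of 3 treatments and that of STL1 under 2 of 3, with equal values in KCl. DAK1 was so by little in 0.1% glucose (0.88 against 0.95). The share of all genes lower under 3 of 3 was not computed. Without the pair of 0.1% glucose arrays GUT2 was at −1.02 (adjusted p = 0.279) and GUT1 at −0.56 (adjusted p = 0.281). Without the pair of nitrogen starvation arrays GUT2 passed at −1.97 (adjusted p = 0.0249), and so did GPP1 at 1.77 (adjusted p = 0.0441), where all 6 arrays gave 0.92 (adjusted p = 0.535) and the fit without 0.1% glucose −0.04. STL1 was at −0.60 without nitrogen starvation and at −1.45 without KCl. Without the nitrogen starvation arrays 17 of all genes rose and 27 fell.

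**Figure D5:**
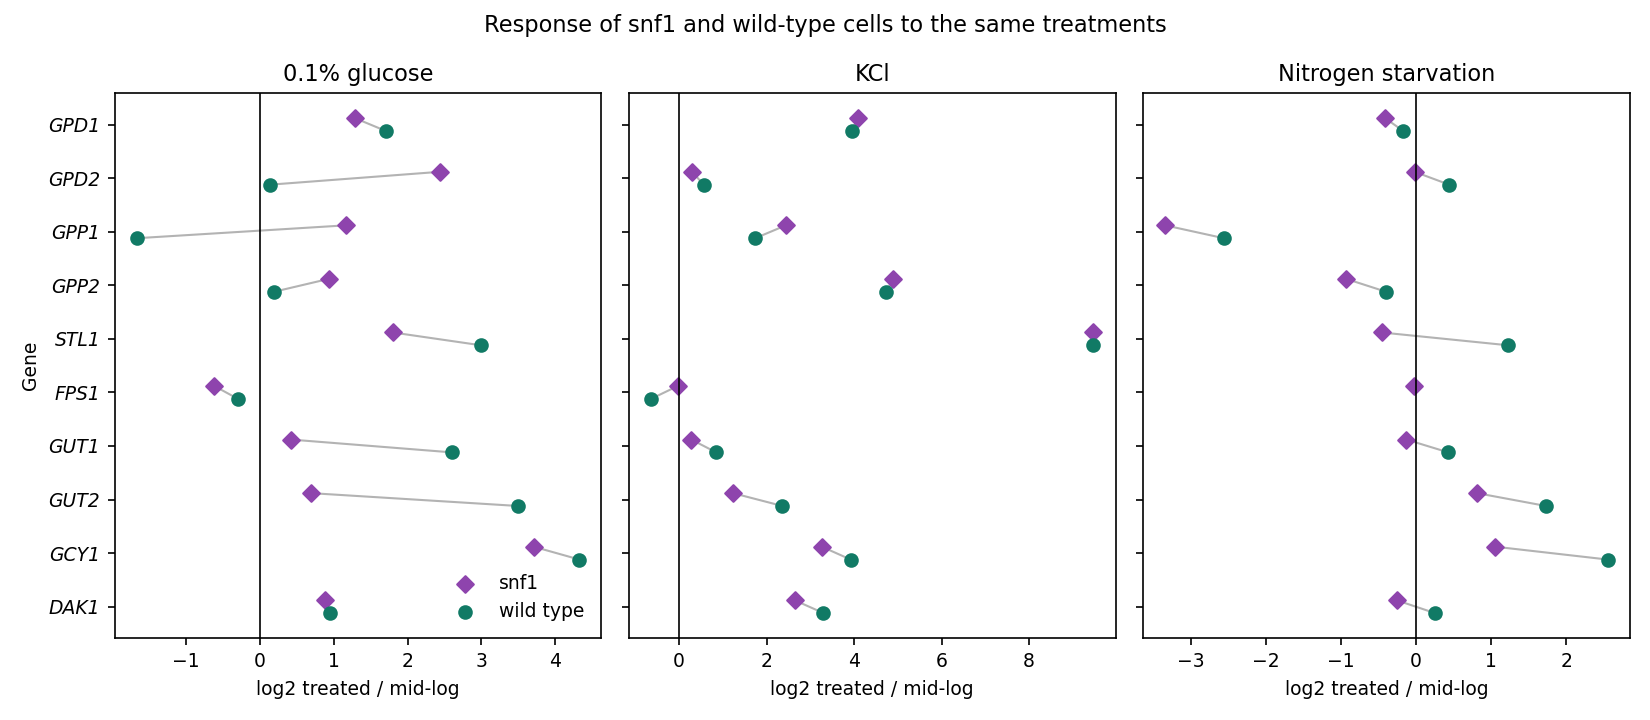
Each gene has its log2 ratio in snf1 cells (diamonds) joined to that in wild-type cells (circles) for 0.1% glucose, KCl and nitrogen starvation, with 1 array for each strain and treatment. GUT1, GUT2, GCY1 and DAK1 lie lower in snf1 cells in all 3 panels, most in 0.1% glucose for GUT2 (0.69 against 3.50) and least there for DAK1 (0.88 against 0.95). The share of all genes that lie lower in all 3 was not computed. GPD1 and GPP2 nearly coincide in KCl.

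With no treatment, 0 of 9 glycerol genes differed 2-fold between snf1 and wild-type cells in either direction, where 2.14% of all genes were higher and 1.62% lower in snf1. The values ran from −0.66 for GPD1 and −0.61 for GPD2 to 0.20 for GCY1. In nitrogen starvation 1 of 10 genes was 2-fold higher than mid-log in snf1 cells (14.4% of all genes), GCY1 at 1.05, and 1 was lower (18.9%), GPP1. Wild-type cells had 3 of 9 higher (14.7%) and 1 lower (14.6%). None of 9 had a 2-fold higher ratio to mid-log in snf1 than in wild-type cells there (0.735% of all genes). The ratios of STL1 (−0.46 against 1.23) and GCY1 (1.05 against 2.55) were 2-fold lower (3.67% of all genes). Blank control spots read −1.53 and −1.34 on this snf1 array and −0.75 and −0.7 on the wild-type array. How far background sets these differences was not tested.

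Under the other single treatments 2 to 4 of these genes were at least 2-fold higher. With rapamycin 2 of 9 were 2-fold higher (11.1% of all genes), GCY1 at 2.81 and GUT2 at 1.33, and GPP1 was lower (11.5%). In amino acid starvation 3 of 10 were higher (13.4%), GCY1 at 3.60, GUT2 at 1.35 and GPD2 at 1.07. At heat shock 4 of 8 were higher (16.0%), GPD1 at 3.34, GCY1 at 2.85, DAK1 at 1.14 and GPD2 at 1.11, and GPP1 was lower (18.4%). In peroxide 3 of 9 were higher (9.97%), GPD1 at 2.41, GCY1 at 1.70 and GPP2 at 1.40, none was lower, and GPD2 and GUT2 stood at 0.99.

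GCY1 was the 1 gene of the group above 2-fold on 14 of 14 treated arrays, from 1.05 in snf1 cells starved of nitrogen, through a median of 2.83, to 4.33 in wild-type cells in 0.1% glucose. The common response tested the mean of each gene over the 7 single treatments of wild-type cells against 0. It did not ask that every array moved the same way. There GCY1 rose by 3.11 (SE 0.289, adjusted p = 0.0000817), above 0 on 7 of 7 arrays. GPD1 (1.64, SE 0.513, adjusted p = 0.0235), DAK1 (1.02, SE 0.337, adjusted p = 0.0302) and GPD2 (0.65, SE 0.162, adjusted p = 0.00814) rose too, so that 4 of 7 did where 22.9% of all genes rose and 28.2% fell. With missing values allowed GUT2 rose by 1.88 (SE 0.313, adjusted p = 0.00158, 6 arrays), which made 5 of 10 higher and 0 of 10 lower, against 22.6% and 25.9% of all genes. GPD1 itself lay below 0 with rapamycin (−0.13) and in nitrogen starvation (−0.17). The call for GPD1 was lost without 0.1% glucose, KCl, heat or peroxide (adjusted p of 0.0503 to 0.0603) and that for DAK1 without 0.1% glucose, heat or peroxide (highest adjusted p 0.0580). Without KCl the DAK1 value was 0.64 (adjusted p = 0.0183). GPP1 (−0.98, adjusted p = 0.0915), GPP2 (1.09, adjusted p = 0.106), GUT1 (0.53, adjusted p = 0.211), STL1 (3.64, adjusted p = 0.0658, 4 arrays) and FPS1 (−0.19, adjusted p = 0.444) did not pass. Without the KCl array GPP1 fell by 1.43 (adjusted p = 0.00561) and STL1 rose by 1.69 (adjusted p = 0.0309, 3 arrays).

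Among 12 other genes tied to glycerol 8 had complete values, and 2 of them rose with KCl while none fell, where 12.4% of all genes rose and 12.4% fell. The median coefficient was 0.18. GRE3, an aldose reductase, rose by 3.18 (adjusted p = 0.000473) and YPR1, a reductase related to Gcy1, by 1.22 (adjusted p = 0.00820). In low glucose 3 of 8 rose and none fell, where 12.4% and 17.3% of all genes did. They were TPI1, triose phosphate isomerase (1.17, adjusted p = 0.0205), GRE3 (1.00, adjusted p = 0.0188) and NDE1, an external NADH dehydrogenase of mitochondria (1.00, adjusted p = 0.00825). With missing values allowed the second external NADH dehydrogenase gene, NDE2, rose with KCl (2.89, adjusted p = 0.0211) and in low glucose (2.53, adjusted p = 0.0148). DAK2, the second dihydroxyacetone kinase gene, rose in low glucose (2.84, adjusted p = 0.0408) and was at 0.89 with KCl (adjusted p = 0.543), and the difference between the kinase genes was not tested.

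The genes of the HOG cascade itself moved in both directions. Of 17 tested out of 19, 2 rose and 5 fell with KCl, with a median of −0.02, where 12.4% of all genes rose and 12.4% fell. OPY2, a membrane anchor of the Sho1 branch, rose by 1.07 (adjusted p = 0.00761). The sensor mucin genes MSB2 (−1.5, adjusted p = 0.00903) and HKR1 (−1.12, adjusted p = 0.0116) and the kinase gene SSK22 (−1.40, adjusted p = 0.00902) fell. HOG1, the kinase at the end of the cascade, was at 0.31 (adjusted p = 0.191). In low glucose 1 of 17 rose and 6 fell, where 12.4% and 17.3% of all genes did, among them MSB2 (−1.24, adjusted p = 0.00825) and the phosphatase gene PTP3 (−1.14, adjusted p = 0.0202), with HOG1 at 0.44 (adjusted p = 0.0501).

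Of 12 regulators 9 were tested, and 1 rose with KCl, where 12.4% of all genes did, none fell, and the median was −0.18. ADR1, the activator of glycerol and ethanol use, rose with KCl (2.24, adjusted p = 0.0253) and in low glucose (1.86, adjusted p = 0.0237). CAT8, an activator of gluconeogenic genes, rose in low glucose (2.65, adjusted p = 0.00829), which made 2 of 9 higher with none lower, where 12.4% of all genes rose and 17.3% fell. HOT1, the activator that works with Hog1 at GPD1 and STL1, was at 0.07 with KCl (adjusted p = 0.843) and −0.58 in low glucose (adjusted p = 0.0525), with missing values allowed.

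The genes most like each of 3 members across arrays were found by Pearson correlation among 3348 named genes with complete values, as a description, since arrays may share a mid-log control and strong treatments weigh most. For GPD1 over 15 arrays they were CTT1 (0.936), the cytosolic catalase gene, GRE3 (0.928), GAD1 (0.918), a glutamate decarboxylase gene, HSP12 (0.910) and SOL1 (0.903). For STL1 over 11 arrays they were PNC1 (0.953), nicotinamidase, PRM8 (0.946), OPY2 (0.946), LPP1 (0.945), a lipid phosphatase gene, and GRE3 (0.938). The 3 STL1 values with KCl lie far above its other 8, and the correlations without them were not computed. For GUT1 over 15 arrays the nearest was SNF3 (0.932), the sensor of low glucose, followed by SDH3 (0.854) of succinate dehydrogenase, KGD2 (0.847) of the TCA cycle, MAL33 (0.842), a maltose activator gene, and NDI1 (0.834), the internal NADH dehydrogenase.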

How the data were processed

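The authors deposited 1 table of log ratios, Cy5 over Cy3, with 2 decimals, taken here as log2. No header or label states the base, and the extremes, −7.18 and 9.47, would lie beyond a scanner's range on a log10 scale. Another base would rescale every value and every 2-fold count. Nor do headers or labels state the background correction or normalisation. Arrays are not counts, so their number limits the precision. The labels put the treated sample in Cy5, except on the peroxide array, whose sign was turned. Exact zeros on 6 arrays with 717 to 1256 of them were taken as no value. These were the wild-type arrays of rapamycin, nitrogen starvation, amino acid starvation, KCl alone and heat, and the mid-log strain array. No treated snf1 array and no combined treatment was among them. Comparisons of either with wild-type KCl or nitrogen starvation alone thus also set both kinds of array against each other. Of 6256 gene probes, 4075 had a symbol (129 brought up to date through RefSeq annotation) and 2181 had none. Probes of a gene were averaged, and 0 columns were left unused. No sequence or coordinate was used here.

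Models were fitted with limma 3.58.1 in R 4.3.3 on all 4653 genes with complete values, or on genes with missing values where said, with Benjamini-Hochberg adjustment and a threshold of 0.05, and were checked on simulated data. The additive model had terms for KCl, low glucose, nitrogen starvation, rapamycin, amino acid starvation, heat, peroxide and strain. Nothing in the labels gives replicate cultures. The p-values of the common response thus measure the spread between treatments. Those of the additive model and of the strain comparison rest on departures from additivity and array error, which cannot be told apart. Single arrays and differences of arrays have no test. The glycerol genes and the other lists were chosen with earlier results of these data known. Named from the lists were genes with an adjusted p under 0.05 and an absolute coefficient of at least 1 for KCl or low glucose, and HOG1, HOT1 and ADR1 in any case. The isozyme tests, exact permutations over arrays, and their alternatives were added after the values were seen. Alternatives left out arrays in turn, kept wild-type arrays only, set treatments against the other treated arrays, centred arrays on their medians, kept zeros, used a trended robust prior in eBayes, or left out the peroxide array.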

Additional observations from a re-analysis of the deposited data

Results flagged for a closer look

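In 0.1% glucose GPP1 stood at 1.16 in snf1 cells and at −1.67 in wild-type cells, so that the strains lay on opposite sides of their mid-log level. Each value comes from 1 array, and the difference was not tested. Blank control spots lay on the same sides, at 2.59 and 2.66 on the snf1 array and −1.15 and −0.77 on the wild-type array. How far background sets the 2 values of GPP1 was not tested.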

How the results depend on the processing

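No paired analysis was possible because each condition had 1 array and the labels give no replicate numbers that groups share, apart from the pairing of snf1 with wild-type arrays by treatment, which is already a block in that fit. With each array left out in turn, calls over all genes ran from 878 to 1066 higher and 1112 to 1334 lower for the common response (1065 and 1312 with all arrays), 42 to 757 and 17 to 818 for KCl (577 and 578), 172 to 567 and 196 to 804 for low glucose (575 and 803), 1 to 1028 and 0 to 1166 for nitrogen starvation (681 and 887), and 0 to 17 and 0 to 27 for snf1 against wild type (0 and 0). The lowest came without wild-type KCl for KCl and without snf1 nitrogen starvation for low glucose and for nitrogen starvation. Counts more than 1.5 times from those of all arrays also came for KCl without snf1 KCl (113 and 102), snf1 nitrogen starvation (305 and 270), 0.02% glucose (332 lower) and nitrogen starvation with KCl (380 lower), for low glucose without snf1 cells (368 and 509) or wild-type cells (383 higher) in 0.1% glucose, and for nitrogen starvation without its wild-type array (182 and 209), snf1 KCl (433 and 559) or wild-type cells in 0.1% glucose (1028 higher). FPS1 with KCl ran from −0.38 to 0.0827, GPP1 and GPP2 in low glucose from −0.0288 to 1.61 and −0.0236 to 0.25, and GPP1 in snf1 against wild type from −0.04 to 1.77. GPD1 minus GPD2 in low glucose ran from −2.33 to −1.48 and GPP2 minus GPP1 with KCl from 1.57 to 2.32.

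On wild-type arrays only, 9 genes rose and 0 fell with KCl and 10 and 1 in low glucose, with fewer arrays in the fit, and the isozyme differences were 2.70 for GPD1 minus GPD2 with KCl, 2.12 for GPP2 minus GPP1 with KCl and −1.97 for GPP2 minus GPP1 in low glucose. Set against the other treated arrays, 28 rose and 17 fell with KCl and 96 and 106 in low glucose. By construction the answer of all treatments then leaves the coefficient, which turned GPD2 to −0.62 and FPS1 to 0.0797 with KCl and GPD1 to −0.84, GPP2 to −1.56, STL1 to −3.34 and DAK1 to −0.86 in low glucose. Centring each array on its median gave 757 higher and 500 lower in low glucose. At a 1.5-fold threshold 14 values of the glycerol genes were lower on the treated arrays, against 5 at 2-fold.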
